A study of Rattus norvegicus with 32 samples.

Results

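The genes described here are the chemokines and chemokine receptors measured in whole red tibialis anterior, a shin muscle whose red part is rich in oxidative fibres, from male Zucker rats. They were chosen by symbol: every array feature annotated to exactly 1 symbol beginning with Ccl, Cxcl, Ccr or Cxcr and a digit, or with Cx3c, Xcl1 or Xcr1, with the brightest feature kept for each gene. This gave 47 of 14557 genes, 29 ligands and 18 receptors, and each was measured by 1 feature. A gene was taken as above background when its mean over all 32 arrays exceeded a log2 intensity of 3.35, the lower quartile of all gene means. By this limit 29 members stood above background, 20 ligands and 9 receptors, which is 61.7% of the members, against 75.1% of all genes.

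The study compared 4 groups of 8 rats, each rat giving 1 array. The ALA group were obese Zucker rats on the AIN-93G diet with 10% flaxseed oil, rich in alpha-linolenic acid, pair-fed to the obese controls. The LA group were obese Zucker rats on the same diet with 10% safflower oil, rich in linoleic acid, also pair-fed. Obese controls and lean controls ate AIN-93G without restriction. All rats were male and 18 weeks old after 12 weeks of feeding. Obese Zucker rats carry a mutation of the leptin receptor in every tissue, so the obese and lean groups differ in body mass and metabolism throughout life as well as in this allele. The sampled tissue carried markers of skeletal muscle: the mean of 6 muscle fibre genes lay between 12.25 and 12.37 on every array. Whether it was the red part of the muscle was not tested.

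Chemokines are small secreted or membrane-anchored proteins that guide leukocytes along gradients, and their receptors couple to G proteins. In muscle they are made by endothelium, resident macrophages, infiltrating cells and, after injury, by the fibres themselves. They are best known there for drawing in neutrophils and monocytes that clear and rebuild damaged fibres, and for the macrophage accumulation of obese tissues. Because whole muscle was measured, fewer cells of a type and less RNA per cell cannot be told apart.

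Cx3cr1, the fractalkine receptor found on monocytes and tissue macrophages, was the single member that differed between obese and lean controls after adjustment over all genes tested, 1.25-fold higher in the obese. Cxcl16, a membrane-anchored ligand, was the single member called by a test of any difference among the 4 groups, being highest on the LA diet and lowest on the ALA diet. No member was called between either diet and the obese controls, or between the diets. Ccl2, the main monocyte attractant, lay far above its level in all other rats on the arrays of obese controls 4 and 7.

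The promoters of 4 members are shown because the results turn on these genes or because they carry the motifs searched. Cx3cr1 and Cxcl16 are the members called, and Cxcl1 and Cxcl10 carry a match to the consensus of NF-kB, a transcription factor of inflammatory genes. Each window runs from 250 bases before to 50 bases after the annotated start, taken from RefSeq on build GRCr8 and printed on the gene's own strand, with motif matches in capitals. They lie at chr8:128677017-128677316 (minus strand), chr10:55669901-55670200 (minus strand), chr14:17479272-17479571 (minus strand) and chr14:15988816-15989115 (plus strand).
Cx3cr1: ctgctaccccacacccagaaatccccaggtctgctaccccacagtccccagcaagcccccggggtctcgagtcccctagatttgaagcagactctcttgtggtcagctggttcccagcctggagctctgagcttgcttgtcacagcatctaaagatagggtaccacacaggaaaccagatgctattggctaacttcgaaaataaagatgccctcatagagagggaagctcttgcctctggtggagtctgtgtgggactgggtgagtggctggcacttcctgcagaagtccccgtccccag
Cxcl16: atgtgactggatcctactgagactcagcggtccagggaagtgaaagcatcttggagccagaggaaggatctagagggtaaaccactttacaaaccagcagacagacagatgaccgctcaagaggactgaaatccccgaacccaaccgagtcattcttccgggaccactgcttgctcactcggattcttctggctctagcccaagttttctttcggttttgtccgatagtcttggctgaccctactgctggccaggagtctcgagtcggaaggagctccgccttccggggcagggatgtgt
Cxcl1: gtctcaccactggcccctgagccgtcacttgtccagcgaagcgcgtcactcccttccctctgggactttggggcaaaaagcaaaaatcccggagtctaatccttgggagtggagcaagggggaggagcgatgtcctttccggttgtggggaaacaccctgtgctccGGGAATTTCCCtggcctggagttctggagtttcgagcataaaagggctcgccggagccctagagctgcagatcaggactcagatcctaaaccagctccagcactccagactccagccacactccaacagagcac
Cxcl10: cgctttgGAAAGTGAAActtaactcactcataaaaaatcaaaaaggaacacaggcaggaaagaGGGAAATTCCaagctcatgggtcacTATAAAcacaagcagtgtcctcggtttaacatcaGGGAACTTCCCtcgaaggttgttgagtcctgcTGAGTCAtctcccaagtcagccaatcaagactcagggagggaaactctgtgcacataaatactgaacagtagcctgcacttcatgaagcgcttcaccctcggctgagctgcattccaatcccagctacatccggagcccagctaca

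RefSeq windows of this kind were matched for 21 of the 29 members above background, and 4 motifs were searched on both strands. The NF-kB consensus was found in 3 of the 21 windows (14.3%), those of Cxcl1, Cxcl2 and Cxcl10, against 7.51% of 33469 promoters. In Cxcl1 the overlapping matches spanned positions -84 to -74 from the start, and in Cxcl2 they spanned -74 to -64. Cxcl10 held NF-kB matches at -187 to -178 and at -128 to -118, and an interferon response element at -243 to -234. It also held a TGANTCA AP-1 match at -96 to -90 and a TATAAA match at -162 to -157. The interferon response element, searched as GAAA repeated after 2 free bases, stood in 2 of the 21 windows (9.52%, against 3.92% of all promoters), those of Cxcl10 and Ccl19. TGANTCA stood in 2 (9.52%, against 7.33%), those of Cxcl10 and Cxcr6. TATAAA stood in 5 (23.8%, against 14.2%), those of Cxcr4, Ccl6, Cx3cl1, Ccl24 and Cxcl10. Over all promoters, TATAAA on the gene's own strand most often began 30 bases before the start. The Ccl6 match began at -32, and the overlapping Cxcr4 matches at -46 and -44. Those of Ccl24, Cx3cl1 and Cxcl10 began farther off, at -65, -78 and -162. None of these letters occurred in the Cx3cr1 and Cxcl16 windows. A match is a run of letters, not a measured site.

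The members fell into ligand and receptor pairs that were measured unevenly. Probes of different genes are not on a common scale, so a mean is read here only against the background limit. Both partners stood above it for fractalkine, Cx3cl1 (mean 4.86) with its receptor Cx3cr1 (4.45), and for the lymph node ligands Ccl21 (6.25) and Ccl19 (3.82) with their receptor Ccr7 (4.47). The same held for Ccl17 and Ccl22 with Ccr4, which attract T helper and regulatory T cells, for the interferon-induced Cxcl9 and Cxcl10 with Cxcr3, for Cxcl16 with Cxcr6, and for Ccl28 with Ccr10. For other pairs the ligand was above background and its receptor was not. These were Ccl2 with Ccr2, Ccl25 with Ccr9, Xcl1 with Xcr1, the eosinophil attractants Ccl11 and Ccl24 with Ccr3, and the neutrophil attractants Cxcl1 and Cxcl2 with Cxcr2. The B cell receptor Cxcr5 was above background and its ligand Cxcl13 was not.

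The remaining members above background were the ligands Ccl3, Ccl5, Ccl6 and Cxcl17 and the receptors Cxcr1 and Cxcr4. The 18 members at or below background were Ccl4, Ccl7, Ccl9, Ccl12, Ccl20, Ccl26, Cxcl6, Cxcl11, Cxcl13, Ccr1, Ccr1l1, Ccr2, Ccr3, Ccr6, Ccr8, Ccr9, Cxcr2 and Xcr1, and were left out of the group tests. Ccr4 (3.38) and Cxcr6 (3.38) stood just inside the limit, and Ccl9 (3.34) and Ccl26 (3.34) just outside it. In the plot of levels most ranges are narrow, and Ccl2 and Ccl9 reach far to the right.

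**Figure D1:**
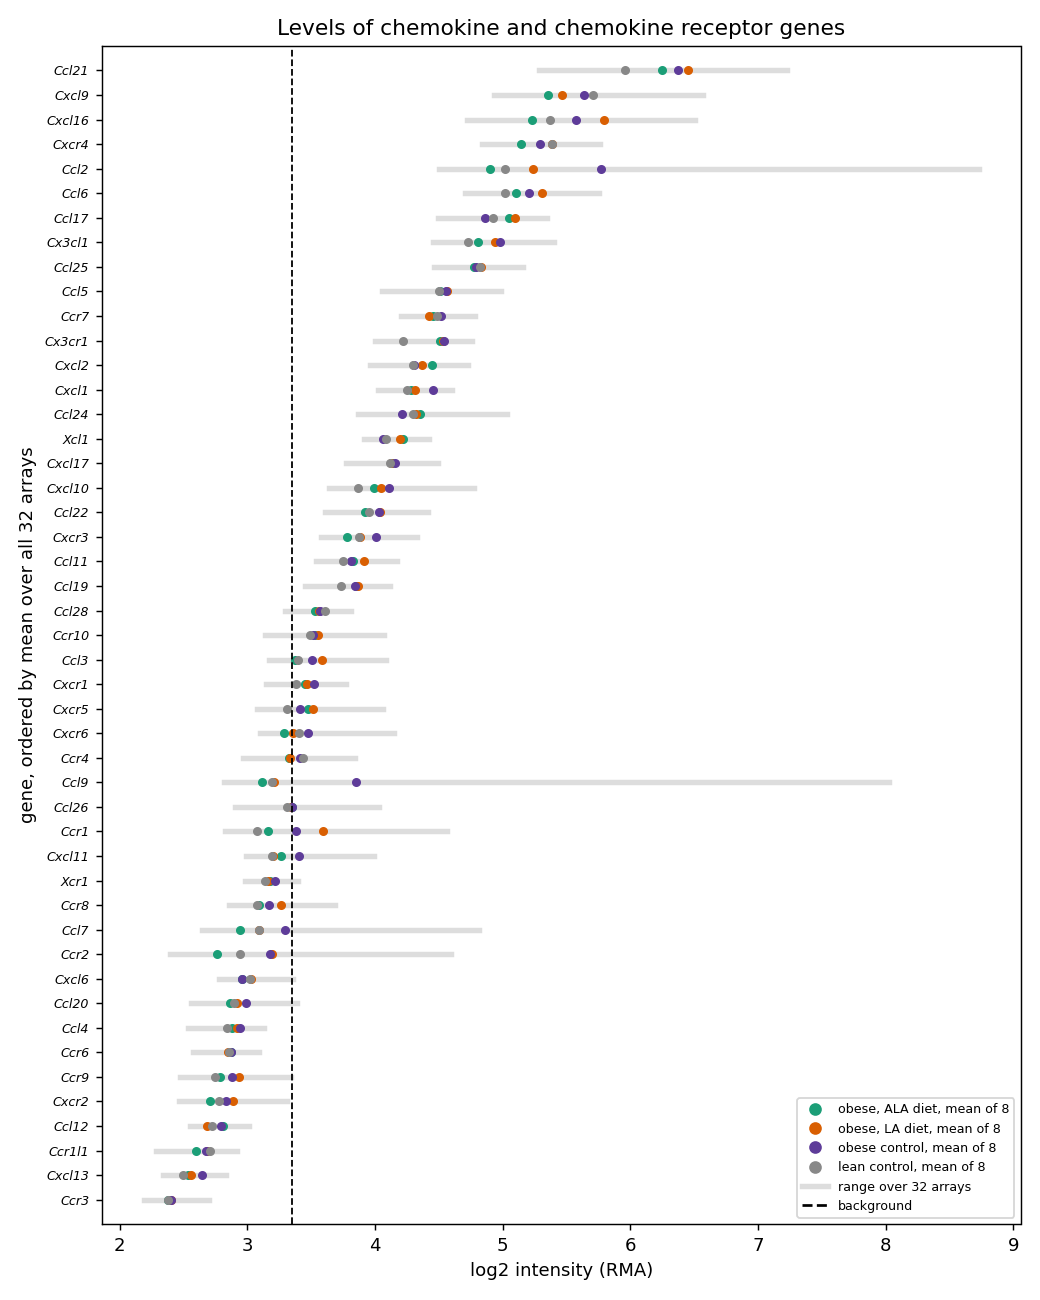
Mean log2 intensity (horizontal axis) of 47 chemokine and chemokine receptor genes (vertical axis, ordered by mean). Dots are means of 8 arrays for the ALA, LA, obese control and lean control groups, grey bars the range over 32 arrays, and the dashed line the background limit of 3.35; 29 genes lie above it by their mean, and the longest bars are those of Ccl2 and Ccl9.

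Many members lie beside each other on GRCr8. Counting genes with at most 5 protein-coding genes between neighbours as 1 cluster, 33 of the 47 members fell into 10 clusters. Chromosome 19 holds Ccl17, Cx3cl1 and Ccl22, all 3 above background, and chromosome 5 holds Ccl19 and Ccl21, both above. Of 7 neighbouring receptor genes on chromosome 8 (Ccr9, Cxcr6, Xcr1, Ccr1, Ccr3, Ccr1l1 and Ccr2), Cxcr6 was the 1 above background. On chromosome 10, Ccl2 and Ccl11 were above background and their neighbours Ccl7 and Ccl12 were not.

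Some arrays stood apart and bear on the results that follow. Obese controls 4 and 7 had mean levels of 7 regeneration and denervation genes of 7.75 and 7.97, and lean control 2 had 7.59, against at most 6.79 on the other arrays. The mean of 13 macrophage markers was 5.67 and 5.93 in obese controls 4 and 7, and 5.98 in LA rat 7, the highest of all. Obese control 5 had a mean of 10.7 for the liver genes Alb and Ttr, against at most 5.32 elsewhere. LA rat 7 also had the highest mean of 8 fibroblast genes, 8.49 against at most 7.62 elsewhere, and of 6 adipocyte genes, 6.06 against at most 5.29. Of 12 T cell and NK cell markers 6 stood above background (Cd4, Cd5, Cd8a, Lck, Nkg7 and Prf1), while Cd3d, Cd3e and Cd3g, chains of the T cell receptor complex, and Cd2, Gzmb and Ncr1 did not. Of 7 neutrophil markers 3 stood above it (Camp, Csf3r and Elane) and S100a8, S100a9, Ngp and Retnlg did not. Of 3 B cell markers Pax5 stood above it and Ms4a1 and Cd22 did not.

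The first comparison set obese against lean controls. Of the 29 members, 1 was called at an adjusted p below 0.05 (limma, Benjamini-Hochberg over 10918 genes), against 1.76% of all genes tested, or 0.43% called higher. At an unadjusted p below 0.05 there were 4 members (13.8%), all higher in obese controls, against 14.8% of all genes, or 5.77% counting those higher. The difference was above 0 for 21 members, 14 of 20 ligands and 7 of 9 receptors, against 50.6% of all genes, and the median was 0.07 log2 units, against 0.00 over all genes. Without obese controls 4 and 7, 17 of 29 were above 0 and the median was 0.04.

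Cx3cr1 had a lowest, median and highest log2 intensity of 4.42, 4.52 and 4.69 in obese controls, against 4.00, 4.25 and 4.36 in lean controls. The groups did not overlap, which held for 0.65% of all genes tested and for no other member. The means were 4.54 ± 0.11 in obese controls and 4.22 ± 0.13 in lean controls (SD, n = 8 each), a difference of 0.32 (95% interval 0.15 to 0.48, limma adjusted p = 0.0284). This call lay near the threshold. It was lost without obese control 3, 5 or 7 or without lean control 4, 5 or 7 (adjusted p up to 0.0758), while the difference stayed between 0.29 and 0.34. Without obese controls 4 and 7 it was 0.32 with an adjusted p of 0.0616.

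The other obese groups were compared with the same lean controls, so these differences are not independent of the first. The oil groups differ from lean controls in genotype, oil and feeding regime, which cannot be told apart here. Cx3cr1 ran from 4.19 to 4.67 with a median of 4.59 on the ALA diet, and from 4.18 to 4.76 with a median of 4.57 on the LA diet. Of 8 rats, 6 on the ALA diet and 7 on the LA diet exceeded the highest lean control, and all 8 obese controls did. Against lean controls the difference was 0.29 on the ALA diet (interval 0.12 to 0.45, limma adjusted p = 0.0841) and 0.31 on the LA diet (0.15 to 0.47, adjusted p = 0.0374). The LA call was lost without any 1 of LA rats 2, 4, 5 and 6 or of lean controls 1, 4, 5, 6 and 7 (adjusted p up to 0.0957), and in a fit of only these 2 groups (0.0623). The ALA difference was called without ALA rat 1 or 3, with a lowest adjusted p of 0.0332.

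Macrophage markers lay on the same side between obese and lean controls. All 13 were higher in obese than in lean controls, with 1 called (Lyz2, lysozyme) and a median difference of 0.22. On the ALA diet 10 of 13 were higher than in lean controls, 0 called (0.888% of all genes), with a median of 0.04. On the LA diet all 13 were higher than in lean controls, 3 called (1.62% of all genes), with a median of 0.50. The mean of the 13 markers ran from 5.01 to 5.93 in obese controls (median 5.12), against 4.77 to 5.14 in lean controls (median 5.02). Obese controls 4 and 7 had the highest obese values of this mean, and the 13 markers were not counted without them. Within groups the level of Cx3cr1 had a slope of -0.03 on this mean (interval -0.28 to 0.23). This slope describes rats of the same group and does not bear on the difference between groups. Other lists also held genes called between obese and lean controls, where 1.76% of all genes were called. Among fibroblast genes 7 of 8 were lower with 2 called (Cd34 and Col3a1) and a median of -0.26. Endothelial genes were lower for 4 of 7, with 2 called (Cdh5 and Tie1) and a median of -0.13. For mast cells 1 of 4 genes was called lower (Kit). Regeneration and denervation genes were higher for 6 of 7, with a median of 0.15, and 1 was called lower. Obese controls 4 and 7 had means of these genes of 7.75 and 7.97, and lean control 2 had 7.59. The group median of this mean was lower in obese controls, 5.71, than in lean controls, 5.78. Adipocyte genes were higher for 5 of 6, with 0 called. The part of any of these cell types in the Cx3cr1 difference, or in those of the other members, was not tested.

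Cx3cl1, the membrane-bound ligand of Cx3cr1 that endothelium displays, had 4.83, 5.02 and 5.17 as lowest, median and highest in obese controls, against 4.46, 4.67 and 5.07 in lean controls. The groups overlapped, with 3 obese controls above the highest lean control. The difference of 0.25 (interval 0.05 to 0.46) had a limma adjusted p of 0.219 and was not called. Cxcl1, which attracts neutrophils, had 4.32, 4.44 and 4.60 in obese controls, against 4.02, 4.29 and 4.36 in lean controls. Obese controls were the higher group, 6 of 8 lying above the highest lean control. The difference of 0.20 (interval 0.07 to 0.33) missed the threshold with a limma adjusted p of 0.0957.

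Ccl21 and Cxcl10 were higher on average in obese controls and spread widely among them. Ccl21 had 5.50, 6.30 and 7.14 in obese controls, against 5.29, 6.08 and 6.17 in lean controls, a difference of 0.41 (interval -0.00063 to 0.83, limma adjusted p = 0.339). Cxcl10 had 3.80, 3.97 and 4.77 in obese controls, against 3.64, 3.91 and 4.13 in lean controls, a difference of 0.24 (0.01 to 0.47, adjusted p = 0.305). Both groups overlapped for both genes. Without obese controls 4 and 7 the obese mean of Ccl21 was 6.12, against 5.95 in lean controls, and that of Cxcl10 was 3.91, against 3.87 in lean controls. The within-group SD of Ccl21 was 0.44, larger than that of 97.2% of tested genes, and it stayed larger than 96.9% without those arrays.

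Members that were lower in obese controls had differences of -0.10 or nearer to 0. Cxcl9 had a difference of -0.07 (interval -0.39 to 0.25, limma adjusted p = 0.873). Its mean was 5.64 ± 0.55 in obese controls, against 5.71 ± 0.23 in lean controls (SD, n = 8 each), and without obese controls 4 and 7 the obese mean was 5.35 ± 0.14.

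Cxcr4, the receptor that holds stem cells and leukocytes in place, had 4.93, 5.28 and 5.63 in obese controls, against 5.03, 5.45 and 5.71 in lean controls, a difference of -0.10 (limma adjusted p = 0.754). Ccl24 had 3.86, 4.17 and 4.62 in obese controls, against 3.87, 4.22 and 5.03 in lean controls, with a difference of -0.08 (adjusted p = 0.784). For both genes the ranges of the groups overlapped over most of their length. Ccl17 had a difference of -0.06 (adjusted p = 0.783). The lowest and highest bounds of the 95% intervals over the 29 members were -0.39 and 1.54, the upper one belonging to Ccl2.

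**Figure D2:**
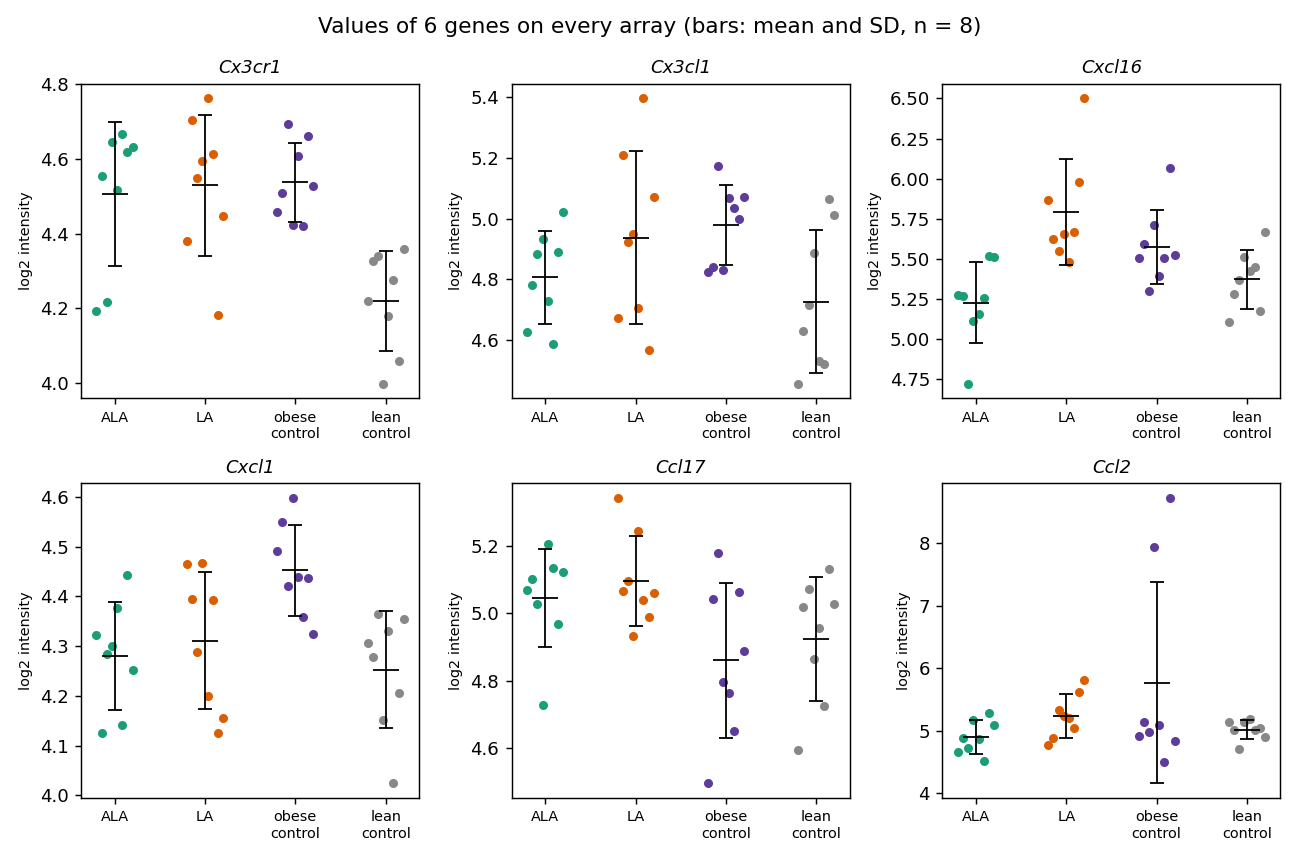
Log2 intensity (vertical axes) of Cx3cr1, Cx3cl1, Cxcl16, Cxcl1, Ccl17 and Ccl2 on every array, with the ALA, LA, obese control and lean control groups from left to right. Points are rats, bars the mean and SD of 8; for Cx3cr1 every obese control lies above every lean control, and for Ccl2 obese controls 4 and 7 lie at 7.94 and 8.73 above all other rats.

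Ccl2 showed how far single rats weighed on the obese control group. Its values were 7.94 in obese control 4 and 8.73 in obese control 7, and between 4.50 and 5.81 on all other arrays. Both obese controls had high regeneration and macrophage markers. Ccl2 was 5.00 in lean control 2, also high in regeneration genes, and 5.62 in LA rat 7, the highest in macrophage markers. Over all 8 obese controls the mean was 5.77 ± 1.61, against 5.02 ± 0.15 in lean controls (SD, n = 8 each), a difference of 0.75 (interval -0.04 to 1.54, limma adjusted p = 0.364). Over the other 6 obese controls the mean was 4.91 ± 0.23. Within groups the SD of Ccl2 was 0.84, larger than that of 99.5% of tested genes. Without obese controls 4 and 7 it was 0.26, larger than that of 89.3%.

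Ccr2 and Ccl7, both below background by their mean, were also high on these arrays, a description chosen after their values were seen. Ccr2, the receptor of Ccl2, had 4.60 in obese control 4, 3.93 in obese control 7 and 3.99 in LA rat 7, and at most 3.36 elsewhere. Ccl7, a monocyte attractant beside Ccl2, had 4.07 and 4.81 in obese controls 4 and 7, and at most 3.36 elsewhere. Cxcl9 and Cxcl10 also peaked there, at 6.44 and 6.57 for Cxcl9 and at 4.62 and 4.77 for Cxcl10. Ccl9 followed another array: it had 8.03 in obese control 5, the array with liver transcripts, and at most 3.56 elsewhere.

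The next comparisons were of each oil diet with the obese controls. The oil groups were pair-fed and the obese controls ate without restriction, so oil and feeding regime cannot be told apart here. Both diet groups were set against the same obese controls, so their differences from them are not independent. On the ALA diet 0 of 29 members were called (0.0% of all genes), and 6 (20.7%) had an unadjusted p below 0.05, against 8.41% of all genes. Of those 6, Xcl1 and Ccl17 were higher and Cxcl16, Cxcl1, Cxcr3 and Ccl2 lower on the ALA diet, where 4.26% of all genes were higher and 4.15% lower at this limit. The difference was above 0 for 8 members, against 47.8% of all genes, with a median of -0.07 against -0.01 over all genes. Without obese controls 4 and 7 it was above 0 for 13 of 29 and the median was -0.03. On the LA diet 0 of 29 were called (0.0% of all genes), 2 (6.90%) had an unadjusted p below 0.05, against 6.25% of all genes, and 16 were above 0, against 49.2% of all genes, with a median of 0.01. Without obese controls 4 and 7, 19 of 29 were above 0 on the LA diet and the median was 0.06.

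Cxcl16 binds Cxcr6 on T cells and also takes up oxidised lipids. It had 4.72, 5.26 and 5.52 as lowest, median and highest on the ALA diet, 5.48, 5.66 and 6.50 on the LA diet, 5.30, 5.51 and 6.06 in obese controls and 5.10, 5.40 and 5.67 in lean controls. The ALA and LA groups barely overlapped, and each overlapped both control groups. The ALA diet differed from obese controls by -0.35 (interval -0.60 to -0.10, limma adjusted p = 0.506), the LA diet by 0.22 (-0.03 to 0.47, adjusted p = 0.844). Without LA rat 8 the LA difference from obese controls was 0.12, and without obese controls 4 and 7 it was 0.32. Against lean controls the LA difference was 0.42 (0.17 to 0.67, limma adjusted p = 0.0741) and the ALA difference -0.15 (-0.39 to 0.10, adjusted p = 0.804).

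Between the diets Cxcl16 averaged 5.23 ± 0.25 on the ALA diet and 5.79 ± 0.33 on the LA diet (SD, n = 8 each). The difference of -0.56 (interval -0.81 to -0.32) had an unadjusted p of 5.5e-05 and a limma adjusted p of 0.460, with 0 genes called in this comparison. The test of any difference among the 4 groups gave an adjusted p of 0.0311 (F = 8.09), against 1.45% of all genes called. That call was lost without any 1 of ALA rats 3, 4 and 5 or LA rats 1 and 7 (adjusted p up to 0.0594), after centring every array on its own median (0.0507), and without obese controls 4, 5 and 7, LA rats 7 and 8 and lean control 2 (0.0806). LA rats 7 and 8 had 5.98 and 6.50. All 13 macrophage markers were lower on the ALA diet than on the LA diet, none called, with a median difference of -0.38, and their mean ran from 4.77 to 5.31 on the ALA diet, against 5.07 to 5.98 on the LA diet. All 8 fibroblast genes (median -0.25) and all 6 adipocyte genes (median -0.15) were lower on the ALA diet too, none called. The shift was not particular to these lists: every other cell type list also had more genes lower than higher, none called. Lower were all 6 T cell and NK cell genes (median -0.12), all 5 dendritic cell genes (-0.09) and all 3 neutrophil genes (-0.17). So were 6 of 7 endothelial genes (-0.03) and 5 of 6 muscle fibre genes (-0.01). LA rat 7 was the highest array for macrophage, fibroblast and adipocyte genes (means 5.98, 8.49 and 6.06), and the genes were not counted without it. The group medians of these means were 5.36, 7.38 and 4.85 on the LA diet, against 5.05, 7.10 and 4.87 on the ALA diet. The part of any of these cell types in the Cxcl16 difference was not tested.

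Among members higher than in obese controls, Ccl17 and Xcl1 had the smallest p on either oil. Ccl17 had 4.73, 5.09 and 5.21 on the ALA diet and 4.93, 5.06 and 5.34 on the LA diet, against 4.49, 4.84 and 5.18 in obese controls. The ranges overlapped, and the medians of both diet groups lay above that of the obese controls. The differences were 0.19 for ALA (interval 0.01 to 0.37, limma adjusted p = 0.583) and 0.24 for LA (0.06 to 0.42, adjusted p = 0.655). Xcl1, a lymphocyte product that attracts dendritic cells, had 3.92, 4.27 and 4.43 on the ALA diet and 3.99, 4.21 and 4.35 on the LA diet, against 3.95, 4.09 and 4.14 in obese controls. On each diet 6 of 8 rats exceeded the highest obese control. The differences were 0.15 (limma adjusted p = 0.546) and 0.13 (adjusted p = 0.798).

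Cxcl1 was lower on both oils, with 4.13, 4.29 and 4.44 on the ALA diet and 4.13, 4.34 and 4.47 on the LA diet, against 4.32, 4.44 and 4.60 in obese controls. No rat on either diet exceeded the highest obese control. The differences were -0.17 for ALA (interval -0.30 to -0.04, limma adjusted p = 0.521) and -0.14 for LA (-0.27 to -0.01, adjusted p = 0.763). Its neighbour Cxcl2 was not lower, with 4.15, 4.44 and 4.73 on the ALA diet, against 4.16, 4.34 and 4.50 in obese controls. That difference was 0.14 (limma adjusted p = 0.658), and 4 ALA rats lay above the highest obese control.

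Among receptors, Cxcr3, which activated T cells carry, had 3.61, 3.78 and 3.92 on the ALA diet, against 3.70, 3.98 and 4.33 in obese controls. The ALA group was the lower and narrower, and the difference was -0.23 (interval -0.41 to -0.04, limma adjusted p = 0.535). Ccr7 had 4.30, 4.38 and 4.61 on the LA diet, against 4.31, 4.50 and 4.68 in obese controls, a difference of -0.10 (adjusted p = 0.858). Cx3cr1 differed from obese controls by -0.03 on the ALA diet and -0.01 on the LA diet, less than the spread between rats. The ALA diet differed from obese controls in Ccl2 by -0.87 (interval -1.65 to -0.08, limma adjusted p = 0.560), and the LA diet by -0.53 (-1.32 to 0.26, adjusted p = 0.858). The ALA mean was 4.90 ± 0.27 (SD, n = 8), against 4.91 ± 0.23 in the 6 obese controls other than 4 and 7, and without those 2 rats the LA difference was 0.33 (adjusted p = 0.833).

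**Figure D3:**
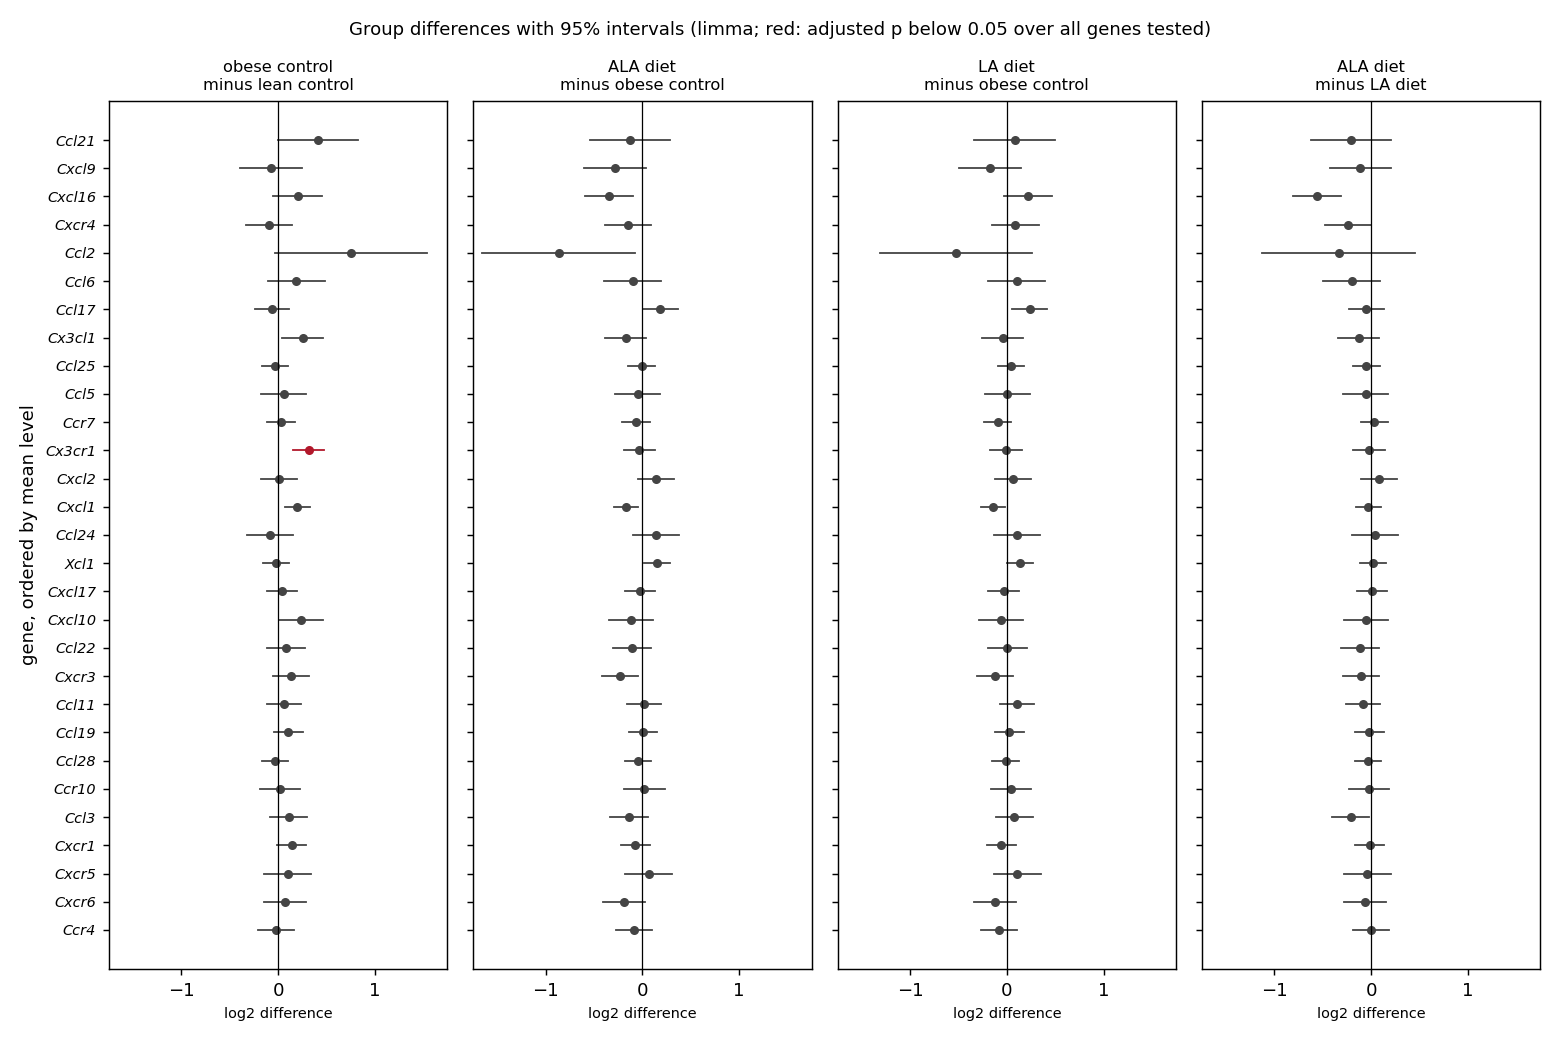
Differences in log2 intensity (horizontal axes) of the 29 members above background (vertical axis, ordered by mean) for obese minus lean controls, ALA diet minus obese controls, LA diet minus obese controls and ALA diet minus LA diet. Points are differences between means of 8 arrays and lines 95% intervals; red marks Cx3cr1, the single difference with an adjusted p below 0.05, and Ccl2 has the widest interval in each panel.

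Between the oils 0 of 29 members were called (0.0% of all genes), and 3 (10.3%) had an unadjusted p below 0.05, against 6.94% of all genes. These were Cxcl16, Ccl3, an attractant of monocytes and T cells, and Cxcr4, all lower on the ALA diet, as were 4.13% of all genes at this limit. Ccl3 differed by -0.21 (interval -0.41 to -0.02, limma adjusted p = 0.654) and Cxcr4 by -0.24 (-0.48 to -0.00070, adjusted p = 0.710). The difference was below 0 for 24 of 29 members with a median of -0.05, and it was above 0 for 49.6% of all genes. The members nearest to being higher on the ALA diet were Cxcl2 by 0.08, Ccl24 by 0.04 and Ccr7 by 0.03, with limma adjusted p of 0.894 or more.

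Set against lean controls, 0 of 29 members were called on the ALA diet, against 0.888% of all genes, and 1 of 29 on the LA diet, the Cx3cr1 difference given above, against 1.62% of all genes, or 0.687% called higher. On the LA diet 23 of 29 were above 0, 18 of 20 ligands and 5 of 9 receptors, with 48.5% of all genes above 0. Ccl21, which guides cells into lymphatic vessels, was 0.50 higher on the LA diet than in lean controls (interval 0.08 to 0.91, limma adjusted p = 0.249). Cxcl9 differed from lean controls by -0.35 on the ALA diet (-0.67 to -0.03, limma adjusted p = 0.442) and by -0.24 on the LA diet (adjusted p = 0.524). Cxcr4 differed by -0.25 on the ALA diet (adjusted p = 0.514).

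Genes that act around the chemokines were counted from lists chosen by role. Of 16 receptor signalling genes 1 was called between obese and lean controls, Prex1, a guanine nucleotide exchange factor for Rac, with a difference of -0.36 (limma adjusted p = 0.0209), where 1.76% of all genes were called. Against lean controls 1 of the 16 was called on the ALA diet, Prex1 at -0.36 (adjusted p = 0.0374), where 0.888% of all genes were called. On the LA diet 2 of the 16 were called against lean controls, where 1.62% of all genes were, Prex1 at -0.48 (adjusted p = 0.00168) and the arrestin Arrb1 at 0.47 (adjusted p = 0.00935). Of the 16, 0 were called on either diet against obese controls or between the diets. Of 7 atypical receptors and other-named chemokines, 11 cytokine and NF-kB genes, 8 leukocyte adhesion genes and 8 genes of cleavage and surface presentation, 0 were called between obese and lean controls, on either diet against obese controls, or between the diets. The nearest were the leukocyte integrin chains Itgb2, 0.47 higher in obese than in lean controls (limma adjusted p = 0.0533), and Itgal, 0.38 higher (adjusted p = 0.0596). For Itgb2 the ALA diet differed from obese controls by -0.45 (limma adjusted p = 0.404) and from the LA diet by -0.43 (adjusted p = 0.491). The mean of the 8 adhesion genes was highest among obese controls in 4 and 7, at 4.67 and 4.83. Its group median was 4.52 in obese and 4.46 in lean controls. Values of Itgb2 and Itgal without those arrays are not given here.

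The last description asked which members varied with macrophage markers among rats of the same group. A slope on the mean of 13 markers was fitted with a mean for each group, leaving the markers themselves out. Of 29 members 5 (all with positive slopes) were called, against 10.3% of 10905 genes, or 6.19% with a positive slope. Ccl2 had a slope of 2.53 log2 units per unit of the marker mean (interval 1.69 to 3.37, limma adjusted p = 0.000176), Cxcl9 0.83 (adjusted p = 0.00593), Ccl6 0.62 (adjusted p = 0.0442), Cxcl16 0.53 (adjusted p = 0.0370) and Cxcl10 0.49 (adjusted p = 0.0335). Without obese controls 4 and 7, 0 members were called. The slopes of Ccl2, Cxcl9 and Cxcl10 were then smaller, at 0.62 (limma adjusted p = 0.238), 0.20 (adjusted p = 0.778) and -0.01 (adjusted p = 0.996). Those of Cxcl16 and Ccl6 were 0.44 (limma adjusted p = 0.457) and 0.86 (adjusted p = 0.0995). The Ccl6 call was also lost on leaving out any 1 of 14 of the 32 arrays (adjusted p up to 0.177), and the Cxcl16 call on leaving out any 1 of 5, obese controls 4 and 7, ALA rats 3 and 7 and LA rat 5 (adjusted p up to 0.277). The Cxcl10 call was lost without any 1 of obese controls 4, 6 and 7 (adjusted p up to 0.461), and the Cxcl9 call without obese control 7 (adjusted p = 0.181). Without obese control 7 alone, Ccl2 was the 1 member called. The members with the smallest p among negative slopes, Ccl5, Ccl28, Cxcr4 and Cxcl2, had slopes of -0.38, -0.20, -0.27 and -0.18, with a lowest limma adjusted p of 0.158.

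**Figure D4:**
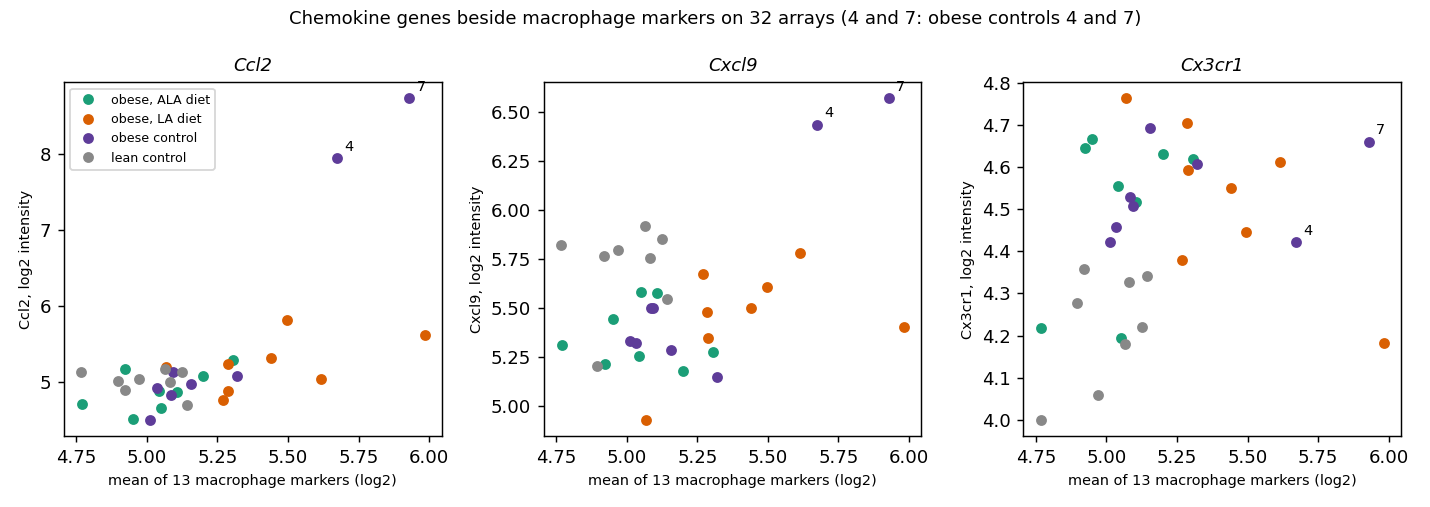
Log2 intensity of Ccl2, Cxcl9 and Cx3cr1 (vertical axes) against the mean of 13 macrophage markers (horizontal axes) on 32 arrays. Points are rats coloured by group, ALA, LA, obese control and lean control; obese controls 4 and 7 stand apart at the upper right for Ccl2 and Cxcl9, and Cx3cr1 shows no such pattern.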

How the data were processed

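Muscle RNA of 32 rats was measured on 1 Affymetrix array per rat, from 100 ng of total RNA (GeneAtlas WT Plus kit, per the labels). The deposited table holds RMA log2 intensities, per the submitters' processing notes; the RMA version is not given in the sources used here. RMA corrects background, quantile-normalises the arrays and summarises probes, which removes any change common to most of the genes and compresses differences of dim features.

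Of 36685 features 14824 had 1 symbol, giving 14557 genes with the brightest feature each. The dimmest 25% were left out and 10918 genes were tested in 1 limma 3.58.1 fit (R 4.3.3) with a mean per group; two-sided p-values were adjusted after Benjamini-Hochberg. Differences had a median standard error of 0.0875 log2 units, which the number of arrays limits. The labels do not say whether rats shared litters or cages. The fits were tested on simulated data. Members, lists and arrays named as standing apart were chosen with earlier results of these data known. Named were the members called in each comparison, the 3 of smallest p on either side, and the 6 with the highest means; others were chosen after their values were seen. Promoters came from RefSeq tables. Some members of the family were not analysed here. Alternatives were other filters, scalings, priors, weights, a replicate block and arrays left out.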

Additional observations from a re-analysis of the deposited data

Results flagged for a closer look

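Of 116 member and group combinations examined, 4 had an array that lay far from the other 7 (3.45%, where chance flags about 1 in 20). Ccl21 in lean control 2 was low at 5.29, against 5.76 to 6.17 in the other lean controls; that array is also one of the 3 with high regeneration and denervation markers. Ccl22 in ALA rat 5 was low at 3.74, against 3.91 to 4.03 in the other ALA rats. Ccl19 in lean control 6 was low at 3.45, against 3.71 to 3.84 in the other lean controls. Cxcr6 in obese control 7, the array with the highest Ccl2, was high at 4.15, against 3.14 to 3.60 in the other obese controls.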

How the results depend on the processing

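No member was called between either diet and obese controls, or between the diets, under any alternative run. The count of members called between obese and lean controls was 1, and 0 with the dimmest 50% of genes left out (Cx3cr1 then not tested), without obese controls 4 and 7, and without 6 arrays that stood apart (obese controls 4, 5 and 7, LA rats 7 and 8, lean control 2), and 2 at an adjusted p below 0.1; leaving out 1 array gave 0 to 1. For the ALA diet minus lean controls the members called were 0. They were 1 with array weights, only the 2 groups compared, without the 6 arrays, and at an adjusted p below 0.1. That member was Cx3cr1 in 3 of these settings and Cxcl9, lower on the ALA diet, in 1 (limma adjusted p = 0.0461). Leaving out 1 array gave 0 to 1. For the LA diet minus lean controls they were 1, 0 with the dimmest 50% left out or only the 2 groups compared, and 2 with a second quantile normalisation, without obese controls 4 and 7, and at an adjusted p below 0.1; leaving out 1 array gave 0 to 2. For any difference among the 4 groups they were 1, 0 with each array centred on its median, and 2 with a second quantile normalisation, array weights, or an adjusted p below 0.1; leaving out 1 array gave 0 to 2. Without the 6 arrays, and without ALA rat 3, LA rat 1 or LA rat 7, the count stayed at 1 but the member called was not Cxcl16. For the macrophage slope they were 5, 3 with a second quantile normalisation, 2 with array weights, 1 with a macrophage mean over fewer markers, and 0 without obese controls 4 and 7 or without the 6 arrays; leaving out 1 array gave 1 to 6.

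The replicate block, with the number in the titles as a block, gave 2 members for the LA diet minus lean controls and 2 for the slope. The numbers do not pair the samples: same-number correlations ran from -0.23 to 0.30, and 7 of 32 arrays correlated best with their own number.

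Reversed signs were few, and the cause was not tested. Ccl2, LA diet minus obese controls, was 0.33 without obese controls 4 and 7 and 0.20 without the 6 arrays. Ccl24, obese minus lean controls, was 0.023 without lean control 1, and ran from -0.14 to 0.023 with 1 array left out. Ccr7, ALA minus LA diet, was -0.016 without ALA rat 4, and ran from -0.016 to 0.067 with 1 array left out. The Cxcl10 slope was -0.0060 without obese controls 4 and 7, and the Ccl5 slope was 0.16 without the 6 arrays.

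The 18 members below background gave no test. Cross-hybridisation between related chemokine genes was not tested.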
